A study of Bos taurus with 9 samples.

Results

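The calprotectin family and innate effector genes were 6 of the 24616 genes measured by RNA-Seq in rectal tissue of beef steers. They were *S100A8*, *S100A9*, *S100A12*, *FCN2*, *PLA2G2A* and *SPP1*, taken by Ensembl identifier from the genes that the study had listed as differing between super-shedders (SS) and non-shedders (NS) of *E. coli* O157:H7. Because that list came from these same steers, no test of the 6 genes below is independent evidence of a difference. All 6 had at least 0.5 CPM (the reads of a gene scaled to a fixed total over all genes) in at least 4 steers and so were among the 15410 genes tested.

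The animals were British x Continental feedlot steers on a barley-grain finishing diet, with 1 library of whole tissue for each of 9 steers. The 4 NS (steers 108, 152, 165 and 242) were pen-mates that had tested negative for *E. coli* O157:H7. The 5 SS (steers 274, 287, 294, 299 and 310) had been identified by their fecal shedding in the days before slaughter, so tissue and peak shedding were not sampled at the same time. Biopsies were frozen after slaughter and were taken just proximal to the rectal-anal junction. Ages and sequencing batches were not given in the sources used here. The libraries held from 5412523 reads on genes in SS 274 to 12278503 in NS 108, so that 1 read was worth from 0.185 to 0.0814 CPM. The comparison asked which libraries carried each gene and whether SS and NS differed.

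Calprotectin is the heterodimer of S100A8 and S100A9, calcium-binding proteins that fill the cytoplasm of neutrophils and other myeloid cells, withhold zinc and manganese from bacteria once released, and serve in feces as a marker of gut inflammation. S100A12, also called calgranulin C, comes from the same cells and is a ligand of the receptor RAGE. The other genes encode effectors of separate kinds: ficolin-2, a soluble lectin that starts the lectin pathway of complement, the secreted phospholipase A2 PLA2G2A, which kills Gram-positive bacteria, and osteopontin (*SPP1*), a secreted phosphoprotein that binds CD44 and integrins and attracts macrophages and T cells.

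The 6 genes were not carried by the same libraries. NS 152 held most of the reads of the 3 S100 genes, NS 242 held most of those of *FCN2*, both held most of those of *SPP1*, and *PLA2G2A* was spread over all 4 NS. The 6 genes had lower mean levels in SS than in NS, yet for *S100A8*, *S100A9*, *S100A12*, *FCN2* and *SPP1* at least 1 NS lay within the range of the SS. *PLA2G2A* was the 1 gene of 6 in which every SS was below every NS, a pattern seen in 2.1% of all genes tested, while the opposite pattern, seen in 0.162%, was found in 0 of the 6.

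**Figure D1:**
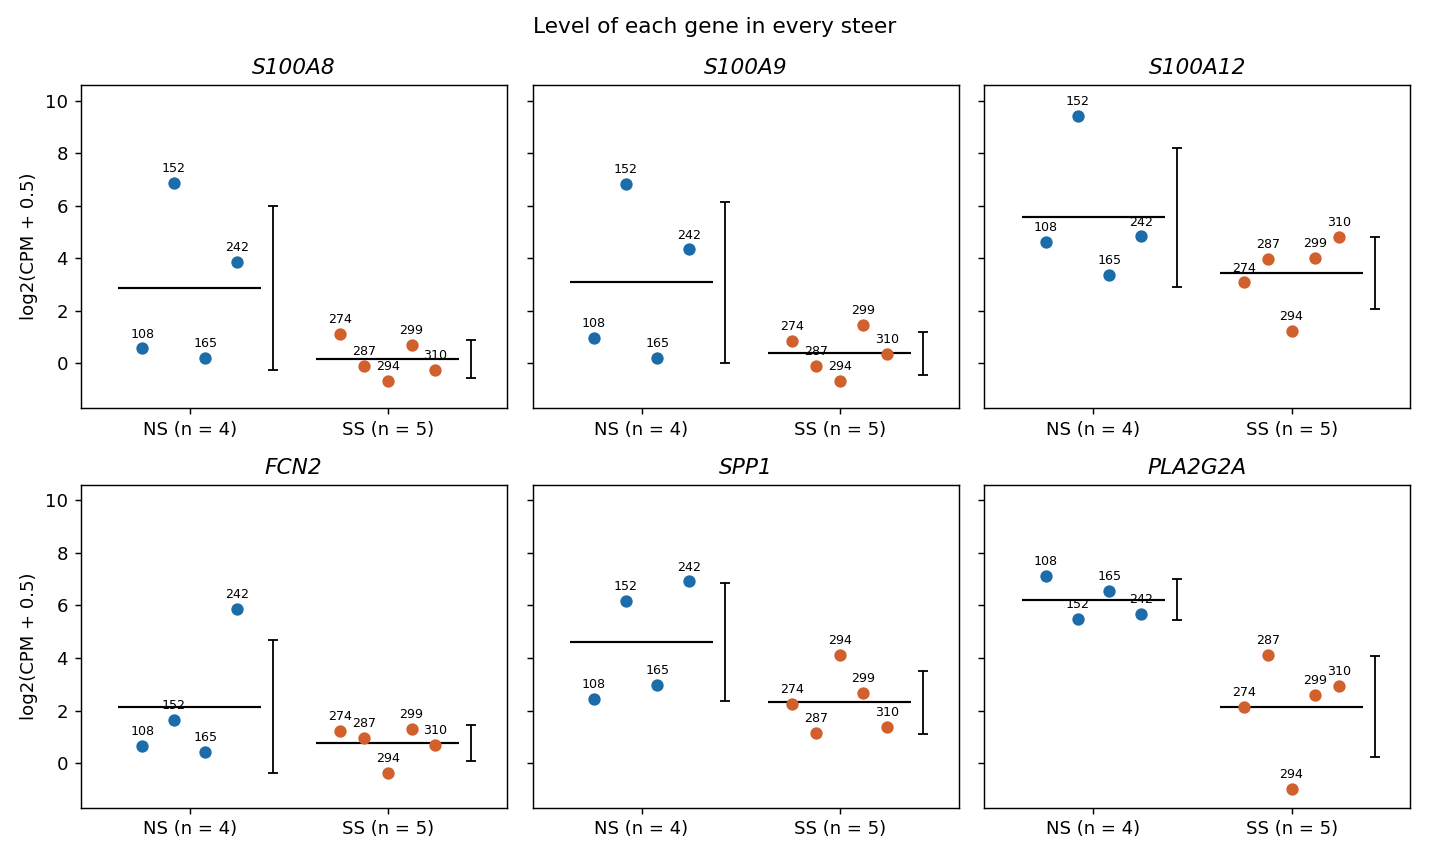
Level of each gene as log2(CPM + 0.5) in each of 4 NS (blue) and 5 SS (orange), with the steer number at each point, the group mean as a horizontal line and its SD as a bar at the right of each group. NS 152 and NS 242 stand above the other steers for *S100A8*, *S100A9* and *SPP1*, NS 152 alone for *S100A12* and NS 242 alone for *FCN2*, while all 4 NS lie above all 5 SS for *PLA2G2A*.

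The tissue itself differed between steers. Colonic epithelium markers, of which 13 of 15 had an identifier, summed to 18332 CPM in NS 108, 17868 in NS 152, 12714 in NS 165 and 1540.3 in NS 242. In SS they summed to 1649.9 CPM in steer 274, 17778.5 in 287, 161 in 294, 11401.5 in 299 and 21516 in 310. Each biopsy thus held epithelial RNA, with *PIGR* the most abundant gene of the list, but NS 242, SS 274 and SS 294 were low in both groups. Smooth muscle markers, all 11 of 11 with an identifier and *MYH11* the most abundant, reached 72668 CPM in SS 294, against 1325 to 38025 CPM in the other 8 steers. NS 242 was the highest library in 27.8% of all genes tested and NS 152 in 6.83%, and SS 294 was the lowest in 29.7%. Whether the makeup of the biopsies plays a part in any result below was not tested, and in bulk tissue fewer cells of a type cannot be told apart from less RNA per cell.

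*S100A8* (ENSBTAG00000012640, UMD3.1 chromosome 3, 17146917 to 17147898) was present at 0.977 CPM in NS 108, 117 in NS 152, 0.657 in NS 165 and 14.0 in NS 242. In SS its levels were 1.66 CPM in steer 274, 0.423 in 287, 0.133 in 294, 1.13 in 299 and 0.347 in 310. NS 152 and 242 were above every SS, whereas NS 108 and 165 lay within the SS range, so the groups overlapped. These levels rested on 1220 reads in NS 152 and 120 in NS 242, but on 12 reads or fewer in each of the other 7 steers. The exact binomial interval (95%) was 110.4 to 124 CPM in NS 152 and 11.6 to 16.7 CPM in NS 242. It was 0.505 to 1.71 CPM in NS 108 and 0.760 to 3.16 CPM in SS 274, so these steers could not be told apart at this depth (the intervals cover counting error only). The mean was 33.1 ± 56.2 CPM in the NS (SD, n = 4) and 0.739 ± 0.637 CPM in the SS (SD, n = 5).

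*S100A9* (ENSBTAG00000006505, chromosome 3, 17176216 to 17179005), the partner of S100A8 in calprotectin, followed almost the same profile. Its levels in NS were 1.47 CPM in steer 108, 112 in 152, 0.657 in 165 and 19.7 in 242, and in SS they were 1.29 in 274, 0.423 in 287, 0.133 in 294, 2.25 in 299 and 0.781 in 310. Again NS 152 and then NS 242 were far above the rest, and NS 108 and 165 lay among the SS. The mean was 33.6 ± 53.3 CPM in the NS (SD, n = 4) and 0.977 ± 0.834 CPM in the SS (SD, n = 5). After each gene was centred on its mean over the 9 steers, the log2 levels of *S100A8* and *S100A9* differed by 0.31 per steer on average, against a median of 1.79 for *S100A8* and any tested gene, and each was the nearest of all genes tested to the other. *S100A8* made up 51.0% of the reads of the pair in NS 152 (exact Clopper-Pearson interval, 48.9 to 53.0%) and 41.5% in NS 242 (35.8 to 47.4%). These intervals also cover counting error only, and each value is from 1 library. In the other steers the share ran from 30.8% in SS 310 to 56.25% in SS 274. It rested there on 2 to 30 reads of the pair and is imprecise.

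NS 152 alone held 85.8% of the *S100A8* CPM and 80.8% of the *S100A9* CPM summed over all steers, and together with NS 242 it held 96.1% and 95.0%. As large a share in 1 library was seen in 7 of the genes tested (0.0454%) for *S100A8* and in 21 (0.136%) for *S100A9*. The size of the group difference therefore depended on how steers were averaged. On log2(CPM + 0.5), limma gave a log2 fold change of -2.72 (SE 1.23, n = 4 NS and 5 SS) for *S100A8* and -2.71 (SE 1.22) for *S100A9*, with a Benjamini-Hochberg adjusted p of 0.928 for both. The exact two-sided permutation p over all divisions of the steers into 4 and 5, which can be no smaller than 0.0159, was 0.127 for *S100A8* and 0.143 for *S100A9*. The log2 ratio of the group means of CPM was -5.49 for *S100A8*, and it was -2.82 without NS 152. For *S100A9* these values were -5.10 and -2.90. The log2 ratio of the group medians, with all steers, was -4.14 for *S100A8* and -3.76 for *S100A9*. Without NS 152 the limma log2 fold change was -1.38 for *S100A8* and -1.46 for *S100A9*.

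*S100A12* (ENSBTAG00000012638, chromosome 3, 17163819 to 17165262) was at 24.3 CPM in NS 108, 677 in NS 152, 9.85 in NS 165 and 28.0 in NS 242. Levels in SS were 7.94 CPM in steer 274, 15.2 in 287, 1.87 in 294, 15.8 in 299 and 27.9 in 310. NS 152 stood alone at 24.2 times the second library, NS 242 was level with SS 310, and the remaining NS were spread through the SS range. In this gene NS 242, the second carrier of calprotectin, was thus not set apart from the SS. The mean was 185 ± 328 CPM in the NS (SD, n = 4) and 13.7 ± 9.75 CPM in the SS (SD, n = 5). The log2 fold change was -2.13 (SE 1.17; limma, adjusted p = 0.928; exact permutation p = 0.143), and it was -0.85 without NS 152. The log2 ratio of group means was -3.75 with all steers and -0.59 without NS 152, and that of the medians was -0.78.

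Reads of *S100A12* for each read of *S100A8* or *S100A9* numbered 9.93 in NS 108, 2.95 in NS 152, 7.50 in NS 165 and 0.830 in NS 242. In SS they numbered 2.69 in steer 274, 18.0 in 287, 7 in 294, 4.67 in 299 and 24.7 in 310. NS 242 had the lowest ratio and was the only steer with fewer *S100A12* reads than calprotectin reads. The ratio was highest in SS 310 and SS 287. The pair had 2 to 30 reads in the 7 steers other than NS 152 and 242, so the ratios of these 7 steers are imprecise. The named genes most like *S100A12* over the 9 steers were *S100A9*, the interferon-induced gene *IFITM1* and *ABRACL*, at mean absolute log2 differences of 0.93, 0.96 and 0.97. They ranked 5, 9 and 13 among all genes tested, named or not, for which the median difference was 1.39. *IFITM1* was at 106 CPM in NS 152 and highest in SS 287 at 166 CPM, so it did not share the peak in NS 152. *S100A12* lies between *S100A8* and *S100A9*, and RefSeq places no other gene between *S100A8* and *S100A12* or between *S100A12* and *S100A9* on the bovine assembly ARS-UCD2.0.

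**Figure D2:**
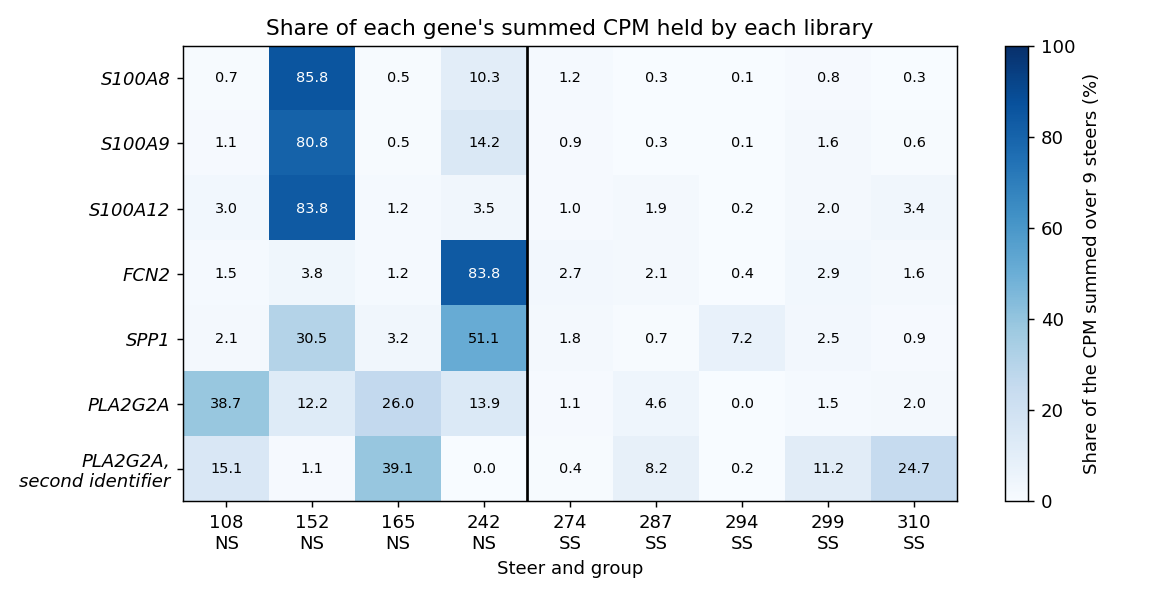
Percentage of the CPM of each gene, summed over the 9 steers, that each library held, with NS at the left of the black line and SS at the right. NS 152 held 85.8% for *S100A8*, 80.8% for *S100A9* and 83.8% for *S100A12*, NS 242 held 83.8% for *FCN2* and 51.1% for *SPP1*, and the largest share of *PLA2G2A* was 38.7% in NS 108.

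Genes carried by 1 library to this extent were rare. At least 75% of the summed CPM lay in 1 library for 34 of the genes tested (0.221%), and 4 of the 6 genes were among them. NS 152 was the library in 7 of the 34, including *S100A8*, *S100A9* and *S100A12*, and NS 242 was the library in 8, including *FCN2* and the T cell gene *LEF1*. The only other gene of the 7 with a name was *CCK*, which encodes the gut hormone cholecystokinin and is named because of its value. Another 13 of the 34 had SS 274 as that library.

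Of 15 other S100 genes, 7 had an identifier, and none of these 7 had most of its summed CPM in 1 library. None had an unadjusted p below 0.05 in limma in either direction, and their median log2 fold change was -0.22, against -0.13 over all genes tested. *S100A10*, the annexin A2 partner and the most abundant of them, averaged 210 ± 64.5 CPM in the NS (SD, n = 4) and 261 ± 154 CPM in the SS (SD, n = 5). *S100A4* averaged 43.8 ± 6.71 CPM in the NS (SD, n = 4) and 41.6 ± 23.8 CPM in the SS (SD, n = 5). Summed over the 7 genes, NS 152 had 871 CPM and NS 108 had 824 CPM, whereas NS 242, at 274 CPM, was the lowest of all steers. Among 9 listed S100 receptors and their partners, *IL6ST* and *CD36* had an identifier, and neither had an unadjusted p below 0.05 (median log2 fold change 0.50).

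*FCN2* (ENSBTAG00000048155, chromosome 11, 106822996 to 106831824) was measured at 1.06 CPM in NS 108, 2.59 in NS 152, 0.845 in NS 165 and 57.5 in NS 242. In SS it was at 1.85 CPM in steer 274, 1.44 in 287, 0.267 in 294, 1.97 in 299 and 1.13 in 310. One steer, NS 242, carried the gene at 22.2 times the level of the next (NS 152), and the other 3 NS lay close to or within the SS range. These levels rested on 493 reads in NS 242 but on 2 to 27 reads in each of the other 8 steers, and NS 108 and SS 310, with 13 reads each, could not be told apart. The current RefSeq annotation lists *FCN2* as a synonym of *FCN1*, so the identifier may stand for the gene now called *FCN1*. The mean was 15.5 ± 28.0 CPM in the NS (SD, n = 4) and 1.33 ± 0.682 CPM in the SS (SD, n = 5). The log2 fold change was -1.38 (SE 1.02; limma, adjusted p = 0.929; exact permutation p = 0.365). Without NS 242 it was -0.14, and the log2 ratio of group means moved from -3.54 to -0.17.

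The genes with a name whose profile was most like that of *FCN2* over the 9 steers were *LEF1*, *THEMIS* and *TCF7*, at mean absolute log2 differences of 0.51, 0.59 and 0.59. They ranked 3, 10 and 12 among all genes tested, named or not, for which the median difference was 1.12. These named genes all belong to the list of T cell markers, of which 5 of 12 had an identifier and 4 had been listed by the study as differing. The summed level of these 5 T cell markers was 81.0 CPM in NS 108, 56.8 in NS 152, 72.8 in NS 165 and 679.6 in NS 242. In SS it was 39.0 CPM in steer 274, 56.2 in 287, 9.61 in 294, 56.2 in 299 and 45.9 in 310. NS 242 was thus the highest for this list as for *FCN2*, and no marker of the list was at 0 in any steer. *CD3G* was the most abundant by its mean over all 9 steers, but in NS 242 *LEF1* was the highest at 182 CPM. In limma 3 of the 5 had an unadjusted p below 0.05 and a lower level in SS, as 3.6% of all genes tested had, with a median log2 fold change of -1.64. The sum was higher in every NS than in every SS by a narrow margin. Taken singly, 2 of the 5 markers also set every NS above every SS, as 2.1% of all genes tested did. Without *CD3G*, a step chosen after seeing the data, NS 152 at 37.3 CPM was below SS 299 at 38.9 CPM. The part of T cell content in the level of *FCN2* was not tested.

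Other genes of the lectin and complement pathways had a summed level that did not peak in NS 242, although *C7* did, at 903 CPM. *C1QA*, *C1QB*, *C1QC*, *C1S* and *CLU* were higher in NS 242 than in any steer but SS 274. Of 43 listed, 14 had an identifier, none had an unadjusted p below 0.05 in limma, and their median log2 fold change was -0.16. Their summed level in NS was 3332 CPM in steer 108, 4382 in 152, 3392 in 165 and 3980.0 in 242, and in SS it ran from 2536 CPM in steer 294 to 5884 in 274. NS 242 lay inside the range of the other steers for the sum. *CLU*, which encodes the complement inhibitor clusterin and was the most abundant, averaged 663 ± 248 CPM in the NS (SD, n = 4) and 741 ± 520 CPM in the SS (SD, n = 5). *C3*, the central component of complement, averaged 403 ± 266 CPM in the NS (SD, n = 4) and 400.1 ± 341 CPM in the SS (SD, n = 5).

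*SPP1* (ENSBTAG00000005260, chromosome 6, 38120577 to 38127577) was at 4.89 CPM in NS 108, 71.8 in NS 152, 7.41 in NS 165 and 120.0 in NS 242. In SS it was at 4.25 CPM in steer 274, 1.69 in 287, 17.0 in 294, 5.91 in 299 and 2.08 in 310. NS 242 and NS 152 were again the high libraries, but in the reverse order to calprotectin, and SS 294 was above NS 108 and 165. The mean was 51.0 ± 55.4 CPM in the NS (SD, n = 4) and 6.18 ± 6.26 CPM in the SS (SD, n = 5). NS 242 held 51.1% of the summed CPM and both libraries 81.6%. The log2 fold change was -2.31 (SE 1.01; limma, adjusted p = 0.928; exact permutation p = 0.111), and it was -1.55 without NS 242. Its log2 ratio of group means was -3.05, and -2.18 without NS 242. The named genes most like *SPP1* were *RASGRP2*, *S100A8* and *THY1*, at mean absolute log2 differences of 0.96, 1.05 and 1.08. They ranked only 5, 18 and 31 among all genes tested, named or not, for which the median difference was 1.61. *RASGRP2* was highest in NS 242 at 131 CPM but had 9.48 CPM in NS 152, and *THY1* was highest in SS 274 at 512 CPM.

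The osteopontin receptors and the macrophage markers with an identifier had mean levels in NS and SS that were closer in ratio than those of *SPP1*. *SPP1* had been listed by the study as lower in these same SS, so its larger ratio follows in part from that choice. Of 10 listed receptor genes, *CD44*, *ITGAV* and *ITGB1* had an identifier, and none of these 3 had an unadjusted p below 0.05 (median log2 fold change 0.09). *ITGB1*, the most abundant, averaged 861 ± 199 CPM in the NS (SD, n = 4) and 974 ± 363 CPM in the SS (SD, n = 5). *CD44* averaged 208 ± 61.0 CPM in the NS (SD, n = 4) and 191 ± 62.1 CPM in the SS (SD, n = 5). Macrophage and monocyte markers, of which 5 of 16 had an identifier and *VCAN* was the most abundant, summed to 718 CPM in NS 108, 847 in NS 152, 661 in NS 165 and 999 in NS 242. In SS they summed to 1693 CPM in steer 274, 779 in 287, 909 in 294, 847 in 299 and 801 in 310. Without *VCAN*, a step chosen after seeing the data, the other 4 markers summed to 246 CPM in NS 108, 329 in NS 152, 286 in NS 165 and 854 in NS 242. In SS these 4 summed to 1113 CPM in steer 274, 330.2 in 287, 209.5 in 294, 240.1 in 299 and 259 in 310. SS 274 and NS 242, the steer with the highest *SPP1*, were then above the rest, and the part of macrophage content in the level of *SPP1* was not tested. None of the 5 markers was at 0 in any steer or had an unadjusted p below 0.05 (median log2 fold change -0.11). For bone and osteoclast-like cells, 1 of 5 markers, *CTSK*, had an identifier, with a log2 fold change of 0.02.

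*PLA2G2A* (ENSBTAG00000005759, chromosome 2, 133289294 to 133295334) had 141 CPM in NS 108, 44.3 in NS 152, 94.5 in NS 165 and 50.6 in NS 242. In SS it had 3.88 CPM in steer 274, 16.7 in 287, 0 in 294, 5.49 in 299 and 7.20 in 310. Every NS was above every SS, NS 108 and 165, low for the calprotectin genes, were the highest, and NS 152 was the lowest of the NS. For the 0 reads in SS 294, a floor of 3 reads of the total was 0.400 CPM, and the exact binomial interval (95%) reached 0.492 CPM. Both cover counting error only. The mean was 82.5 ± 44.7 CPM in the NS (SD, n = 4) and 6.65 ± 6.21 CPM in the SS (SD, n = 5). The log2 fold change was -4.06 (SE 0.89, 95% interval -6.06 to -2.07) and the exact permutation p was 0.0159, the smallest that these group sizes can give. Adjusted over all genes tested, the limma p was 0.928. No single library held more than 38.7% of the summed CPM, and the log2 ratio of group means, -3.63, was close to that of the medians, -3.72. Its log2 fold change stayed between -4.55 (without SS 287) and -3.28 (without SS 294) when single steers were left out.

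A second identifier that the study names *PLA2G2A* (ENSBTAG00000013039) had a different profile. It was at 549.7 CPM in NS 108, 38.7 in NS 152, 1427 in NS 165 and 1.63 in NS 242. In SS it was at 16.1 CPM in steer 274, 298 in 287, 7.87 in 294, 407 in 299 and 900.4 in 310. The highest and the lowest steer were both NS, and all 5 SS lay between them. Its log2 fold change was 0.27 (SE 2.05; limma, adjusted p = 0.983; exact permutation p = 0.921), whereas edgeR and DESeq2 both gave -0.58 and the log2 ratio of group means was -0.63, so its direction depended on the measure. The identifier among the 6 genes gave 96.9% of the CPM of both in NS 242, 53.3% in NS 152, 20.4% in NS 108 and 6.21% in NS 165. It gave 19.4% in SS 274, 5.30% in SS 287, 0% in SS 294, 1.33% in SS 299 and 0.794% in SS 310.

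Summed over both identifiers, a step chosen after seeing the data, *PLA2G2A* came to 690.3 CPM in NS 108, 83.0 in NS 152, 1522 in NS 165 and 52.2 in NS 242. The sum in SS was 19.95 CPM in steer 274, 315 in 287, 7.87 in 294, 412 in 299 and 908 in 310. The groups then overlapped, and the log2 fold change was -1.18 (SE 1.56; exact permutation p = 0.556). The current RefSeq annotation lists a pair of adjacent genes with *PLA2G2A* as a synonym, and no gene lies between them. Their sequences were not compared here, and how the counting treated any reads that map to both is not stated in the sources used, so how far the levels of the identifiers are separate was not tested. Of 20 other phospholipase A2 genes and receptors, *PLA2G16* had an identifier, and its log2 fold change was -0.69 with an adjusted p of 0.936 (limma).

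The genes with a name most like *PLA2G2A* over the 9 steers were *RGS13*, a regulator of G protein signalling in germinal centre B cells, *CXCL13*, the chemokine that draws B cells into follicles, and *COL17A1*, a collagen of hemidesmosomes. Their mean absolute log2 differences from *PLA2G2A* were 0.83, 0.88 and 0.997. They ranked 1, 2 and 6 among all genes tested, named or not, for which the median difference was 2.02. *CXCL13* was at 75.3 CPM in NS 108, 72.9 in NS 152, 66.6 in NS 165 and 293 in NS 242, and in SS it ran from 0.801 CPM in steer 294 to 16.6 in 287. As for *PLA2G2A*, SS 287 was the highest SS, SS 294 the lowest and no SS reached an NS. *RGS13* and *CXCL13*, like *PLA2G2A*, had been listed by the study as lower in SS. A shared gap between the groups thus follows in part from that choice.

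B cell markers, of which 6 of 11 had an identifier, summed to 182 CPM in NS 108, 71.1 in NS 152, 123 in NS 165 and 593 in NS 242. In SS they summed to 41.4 CPM in steer 274, 36.7 in 287, 4.27 in 294, 37.3 in 299 and 20.6 in 310. The sum of this list also set all NS above all SS, as 4 of the 6 markers did singly (2.1% of all genes tested). NS 152 was the lowest NS and SS 294 the lowest SS as for *PLA2G2A*, but NS 242 rather than NS 108 was the highest. All 6 markers had an unadjusted p below 0.05 with a lower level in SS (3.6% of all genes tested; median log2 fold change of the 6, -2.86), none was at 0 in any steer and *MS4A1* was the most abundant, and all 6 had been listed by the study as differing. Of 8 follicle stroma markers, 4 had an identifier, 3 of these had an unadjusted p below 0.05 with a lower level in SS (median log2 fold change -2.34), and those 3 were also from the list of the study. Their sum, with *CLU* the most abundant and none at 0, was 521 CPM in NS 108, 658 in NS 152, 887 in NS 165 and 1790.3 in NS 242. It was 1573 CPM in SS 274, 311 in SS 287, 966 in SS 294, 543 in SS 299 and 441 in SS 310. SS 274 and SS 294 were thus above 3 of the NS, and SS 299 was above NS 108. Without *CLU*, a step chosen after seeing the data, the other 3 markers summed to 126 CPM in NS 108, 126 in NS 152, 113 in NS 165 and 839 in NS 242. In SS these 3 summed to 16.4 CPM in steer 274, 35.7 in 287, 21.5 in 294, 39.7 in 299 and 17.5 in 310, so every NS was then above every SS. This step left only the markers from the list of the study, and *CLU* itself had a log2 fold change of -0.03. Taken singly, 2 of the 4 markers set every NS above every SS (2.1% of all genes tested). *CCL19* did not, since SS 299 at 25.2 CPM was above NS 108, 152 and 165. The part of B cell and follicle content in the level of *PLA2G2A* was not tested.

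The summed level of other antimicrobial effectors was not highest in an NS. Of 33 listed, 5 had an identifier (*LYZ*, *BPI*, *RNASE4*, *Ang4* and *WFDC2*), none had an unadjusted p below 0.05, and the median log2 fold change was -0.44. Summed, they reached 625 CPM in NS 108, 630.1 in NS 152, 706 in NS 165 and 317 in NS 242. The sum in SS was 848 CPM in steer 274, 717 in 287, 257 in 294, 630.1 in 299 and 1080.2 in 310. SS 294 and NS 242 were lowest and SS 310 highest, whereas each of the 6 genes was highest in an NS. The 6 genes had been listed by the study as differing in these same steers, so this contrast follows in part from that choice. SS 294 was also the lowest steer for 5 of the 6 genes. Taken singly, *LYZ* was highest in NS 242, at 116 CPM, and the other genes of the list were highest in an SS. *RNASE4*, a secreted ribonuclease and the most abundant, averaged 169 ± 29.1 CPM in the NS (SD, n = 4) and 226 ± 61.2 CPM in the SS (SD, n = 5). *BPI*, a bactericidal protein of neutrophil granules and epithelia, averaged 87.0 ± 55.3 CPM in the NS (SD, n = 4) and 99.6 ± 98.5 CPM in the SS (SD, n = 5). The 24 neutrophil markers and the 19 neutrophil chemoattractants and inflammatory cytokines had 0 genes with an identifier, so the neutrophil content of the biopsies was not analysed here.

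Markers of the remaining cell types had no gene with an unadjusted p below 0.05. Medians of the log2 fold change were -1.16 for the 13 colonic epithelium markers, -1.33 for 5 of 8 goblet cell markers, led by *CLCA1*, and -0.88 for 4 of 10 Paneth and deep crypt secretory markers, led by *REG4*. They were -0.86 for 2 of 7 plasma cell markers, led by *JCHAIN*, -0.40 for the 11 smooth muscle markers and 0.41 for 11 of 12 fibroblast markers, led by *COL1A2*. A single gene stood for M cells (*ANXA5* of 8, log2 fold change 0.26) and for squamous epithelium (*EVPL* of 20, log2 fold change 0.83, listed by the study as differing).

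Compared over all 15 pairs of the 6 genes, *S100A8* and *S100A9* were the most alike, with a mean absolute log2 difference of 0.31, followed by *S100A9* and *S100A12* at 0.93. *SPP1* was nearer to *S100A8* (1.05) and *S100A9* (1.08) than to *FCN2* (1.27), although it shared its highest steer with *FCN2*. *PLA2G2A* was the farthest from the other 5, at 1.85 from *S100A12* to 2.30 from *SPP1*. The 6 genes thus had 3 libraries as their highest, NS 152 for the S100 genes, NS 242 for *FCN2* and *SPP1* and NS 108 for *PLA2G2A*, and 5 of the 6 were lowest in SS 294, as were 29.7% of all genes tested, the exception being *SPP1*, which was lowest in SS 287. For *S100A8* and *S100A9* the level in SS 294 rested on 1 read each.

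Over all genes tested, limma called 0 genes (0%) with an adjusted p under 0.05 and a log2 fold change beyond 1 in size, and so 0 of the 6. At an unadjusted p below 0.05 it had 555 genes (3.6%) lower and 55 (0.357%) higher in SS, and 2 of the 6 genes, *PLA2G2A* and *SPP1*, were among the lower ones. With median-of-ratios or TMM scaling 267 and 307 genes were lower at that threshold, and *PLA2G2A* but not *SPP1* was among them. On the reads recovered from the CPM, edgeR's quasi-likelihood test put all 6 genes at an unadjusted p below 0.05, where 2.32% of all genes were also lower, and each had an adjusted p of 0.904. DESeq2 called 19 genes, all lower in SS (0.125% of 15229), including *S100A8* (log2 fold change -5.44, adjusted p = 0.0213) and *S100A9* (-5.08, adjusted p = 0.0272). Over the alternatives other than leaving out steers, the adjusted p ranged from 0.0213 to 0.979 for *S100A8* and from 0.0272 to 0.979 for *S100A9*. DESeq2 gave no p for *S100A12* and *FCN2*, and its adjusted p was 0.0882 for *PLA2G2A* and 0.531 for *SPP1*. The DESeq2 fold changes of *S100A8* and *S100A9* were close to the ratios of group means, in which NS 152 weighs most, and lay further from 0 than the limma values, which average the log levels.

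Another scaling of the libraries turned no direction among the 6 genes. The median log2 fold change over all genes was -0.13 on the deposited CPM and 0.01 after median-of-ratios scaling, and the 6 genes had a median of -2.51 on the deposited CPM. After that scaling the log2 fold change was -2.62 for *S100A8*, -2.61 for *S100A9*, -1.99 for *S100A12*, -1.27 for *FCN2*, -2.17 for *SPP1* and -3.95 for *PLA2G2A*. *PLA2G2A* was still the 1 gene of 6 whose groups did not overlap, where the share of all genes tested was 0.934%. With each steer left out in turn, every one of the 6 genes kept a negative log2 fold change, and *FCN2* without NS 242 came nearest to 0.

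**Figure D3:**
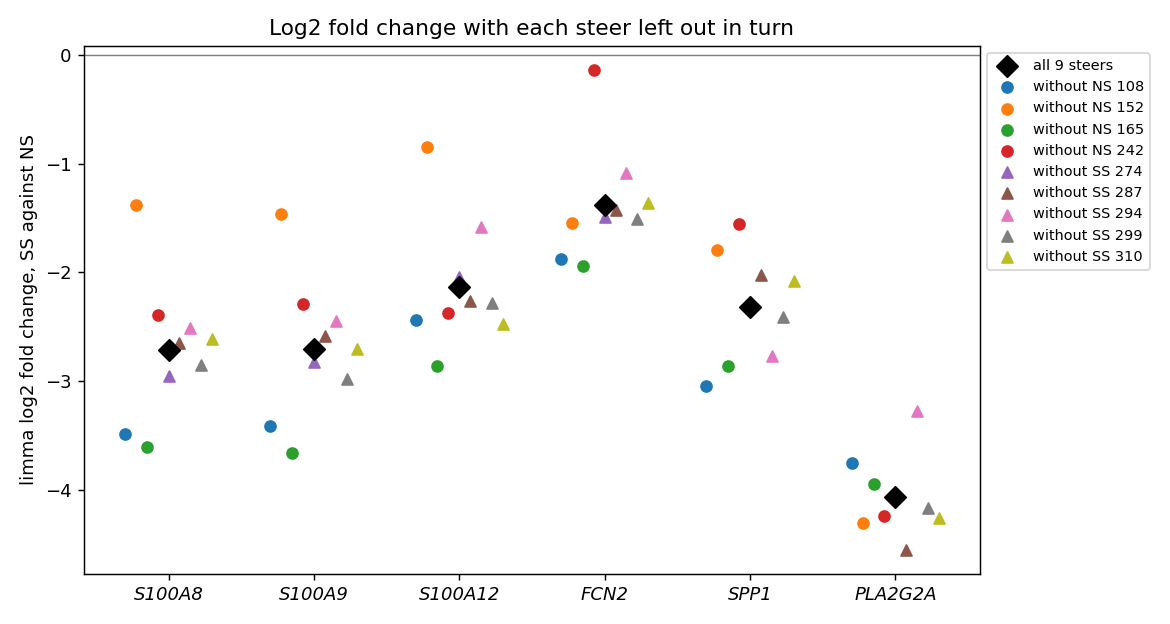
The limma log2 fold change of SS against NS for each gene with all 9 steers (black diamonds) and with each steer left out in turn (circles for an NS left out, triangles for an SS left out). Leaving out NS 152 brought *S100A8* to -1.38, *S100A9* to -1.46 and *S100A12* to -0.85, and leaving out NS 242 brought *FCN2* to -0.14 and *SPP1* to -1.55, while *PLA2G2A* stayed between -4.55 and -3.28.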

How the data were processed

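The authors deposited CPM per Ensembl gene for 9 libraries, made from stranded, rRNA-depleted total RNA. The submitters' processing notes name TopHat2, HTSeq and edgeR, with no versions, and the build UMD3.1. Each of the 9 columns was matched to a steer by its label, and 0 columns had no sample. Read counts were recovered from the deposited CPM, and 100% of values were whole within a tolerance of 0.01 reads. Tests covered genes that reached 0.5 CPM in 4 or more steers and used limma (eBayes with an intensity trend) on log2(CPM + 0.5), which understates the change of low genes, and with two-sided exact permutation tests of the log2 means for single genes. edgeR and DESeq2 on the recovered counts, pseudocounts of 0.1 and 1, other filters and scalings, and the omission of each steer were alternatives. Software was scipy 1.17.1, pandas 2.3.3 and numpy 2.4.6 under Python 3.11.15, and edgeR 4.0.16, limma 3.58.1 and DESeq2 1.42.0 under R 4.3.3. The limma step was tested on simulated data.

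Names were known for 2052 of 24616 identifiers, from gene lists of the study, which also give the UMD3.1 coordinates. The genes, lists and tests were chosen with earlier results of these data known. The genes named are the 6 genes, listed markers and pathway genes, led by the most abundant of each list, and the 3 named genes most like each of the 6 by the mean absolute difference of centred log2(CPM + 0.5). RefSeq (ARS-UCD2.0) was used for synonyms and neighbouring genes.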

Additional observations from a re-analysis of the deposited data

Results flagged for a closer look

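In 14 groups, each gene or *PLA2G2A* identifier within NS or within SS, the gap between the most extreme steer and its nearest neighbour was compared with the range of the group, and 5 groups had a steer far from the others. Chance gives about 1 in 20 groups, but in these CPM the same rule marked 11.3% of all genes tested in NS and 7.46% in SS. The 5 groups are not independent, since 3 of them are the same steer in 3 genes of similar profile. In NS, steer 152 was far above the other 3 for *S100A8* at 117 CPM, for *S100A9* at 112 CPM and for *S100A12* at 677 CPM. For *S100A9* the gap was 0.830 of the range, just past Dixon's critical value. *FCN2* in NS 242, at 57.5 CPM, was far above the other 3 NS. *SPP1* in SS 294, at 17.0 CPM, was far above the other 4 SS and lay inside the NS range. That gap was 0.723 of the range, also just past the critical value.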

How the results depend on the processing

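Of 98 log2 fold changes of the 6 genes with a p under the alternatives, 96 kept their direction and their side of the threshold, 0 changed sign and 2 passed the threshold, those of *S100A8* (-5.44) and *S100A9* (-5.08) in DESeq2, which gave no p for *S100A12* and *FCN2*. limma called 0 genes over all, and DESeq2 called 19. At an unadjusted p below 0.05 in limma, 55 genes were higher and 555 lower on the deposited CPM, against 191 and 267 after median-of-ratios scaling and 162 and 307 after TMM scaling. At that threshold edgeR had 240 higher and 357 lower. DESeq2 had 497 higher and 400 lower, so there the higher genes were more numerous. With each steer left out, limma called 0 to 1 genes (1 without NS 108 and 1 without SS 299), and from 325 genes without NS 242 to 1181 without SS 287 had an unadjusted p below 0.05. The log2 fold change then ranged from -3.60 to -1.38 for *S100A8*, -3.67 to -1.46 for *S100A9*, -2.86 to -0.85 for *S100A12*, -1.95 to -0.14 for *FCN2*, -4.55 to -3.28 for *PLA2G2A* and -3.05 to -1.55 for *SPP1*. A minimum of 1 CPM in every steer of a group left no value for *S100A8*, *S100A9* and *FCN2*. The sum of both *PLA2G2A* identifiers (-1.18) was added after seeing the data. No paired analysis was possible because the groups share no replicate (steer) numbers. The paper calls the NS pen-mates, but the pen of each steer was not given in the sources used here. The causes of these shifts were not tested. Depth limits *S100A8* and *S100A9* in 7 steers and *FCN2* in 8 steers with few reads.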
